A study of Mus musculus with 96 samples.

Results

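Car1 and Car2 encode carbonic anhydrases 1 and 2, a pair of cytosolic enzymes. They were picked by symbol as 2 of the 49466 genes in the count table, because Car1 spread so widely among single cells of the earliest gate. Levels are in CPM, read counts put on one common scale for every cell or summed gate. That choice used the levels described here, so the levels and the genes that vary with Car1 are descriptions and carry no test.

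The study measured polyadenylated RNA of single erythroid progenitors taken at embryonic day 14.5 from the livers of C57/Bl6J fetuses, with Smart-seq2, a plate method that sequences fragments along the transcript and uses no molecular identifiers. All cells had first been depleted of cells carrying mature lineage proteins, Ter119, Sca-1, CD16/32 or CD41, and were then sorted on Kit, CD71 and CD24, so Kit, Tfrc (CD71), Cd24a (CD24) and Itga2b (CD41) are part of how the cells were obtained. The plate of 96 wells held 24 wells in each of 4 gates: burst-forming units-erythroid (BFUE), cells labelled as 25 to 35% for CD71/CD24 (the lower intermediate gate), cells labelled as 50 to 60% (the upper intermediate gate), and colony-forming units-erythroid (CFUE). The labels do not say what these percentages are taken of. No genotype, treatment or drug distinguished the gates. The labels name no animal or litter, so each gate is 1 sample, cells are not replicates, and no p-value is given for a difference between gates. Each gate filled 3 plate columns of its own, and gate and plate column cannot be told apart.

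Carbonic anhydrases catalyse the interconversion of carbon dioxide and bicarbonate, which lets red cells load, carry and release carbon dioxide while protons are buffered by hemoglobin. Isozyme 2 is the fast cytosolic form found in many tissues, and isozyme 1 is the slower form known above all as one of the most abundant proteins of the mature red cell after hemoglobin. BFUE cells are early committed erythroid progenitors that give large colonies, and CFUE cells are later progenitors that give small ones within a few divisions. In the mouse both genes lie in a cluster of carbonic anhydrase genes.

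Of the 96 wells, 91 had at least 50000 reads and 1000 detected genes and were kept: 23 BFUE, 21 lower intermediate, 24 upper intermediate and 23 CFUE cells. The kept cells held between 947458 and 3785903 reads, with a median of 9363 genes, and the other 5 wells held 10596 to 16644 reads. In the BFUE gate 8 cells had 1036 CPM or more of Cd34, a surface protein gene of early progenitors, and the other 15 had 5.16 CPM or less. The 8 Cd34-high cells went against the label of an erythroid progenitor: Gata1, the main erythroid transcription factor gene, stood at 12.7 CPM of their summed counts and Klf1, an erythroid factor gene, at 18.5 CPM, against 411 and 657 CPM in the Cd34-low cells. BFUE results are therefore given with and without them. In the CFUE gate the cells in wells A10 and D10 had the fewest genes of all kept cells, 7422 and 6361 against 8246 or more in every other cell, and D10, with the fewest reads, had only 3.17 CPM of Gata1 and 5.28 CPM of Kit. Car1 levels of CFUE are given with and without these 2 cells. All intervals below are 95% intervals of counting error only; the sequenced reads are not independent molecules, and the spread between cells or animals is not in them.

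Car1 lies on chromosome 3 of GRCm38, from 14766216 to 14808368 on the minus strand, with 1248 bases of annotated exon. Car2 lies on the plus strand from 14886273 to 14900770, with 2422 bases of exon. The genes are 77904 bases apart and point away from each other, with Car3 between them.

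Car1 was concentrated in a few BFUE cells. The 15 Cd34-low BFUE cells ran from 3.28 to 4264 CPM of Car1, with a median of 99.0 CPM. The cell in well C3 had 4264 CPM, the cell in well G2 had 2472, the cell in well D1 had 1084 and the cell in well F3 had 882 CPM. Next came the cell in well A1 at 300 CPM. The 2 lowest, B3 and H3, had 3.28 and 4.01 CPM, which is 5 and 6 reads. These values form a long upper tail: C3 alone held 42.9% of all Car1 reads of the 15 cells, and the 4 highest cells together held 87.5%. The coefficient of variation of Car1 over these cells was 1.83, and 0 of 498 genes with a mean within a factor of 2 of it had a higher one. Car1 was picked for its spread in the BFUE gate, so this place among genes describes the choice and is no test.

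Car1 was at a few reads a cell in most Cd34-high cells of the same gate. Of these 8 cells, 7 had between 1 and 8 reads, and the eighth, in well F1, had 82 reads or 50.7 CPM. Their median was 1.44 CPM, below the lowest Cd34-low cell. In all, 12 of the 15 Cd34-low cells had more Car1 than any Cd34-high cell. On summed counts Car1 stood at 608 CPM in the Cd34-low and 8.35 CPM in the Cd34-high cells, 72.8-fold higher (59.8 to 89.5). By the same measure, 25.4% of the 9224 genes with at least 10 CPM on either side were higher by 1.5-fold or more in the Cd34-low cells, and 30.4% were lower.

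In the 3 later gates Car1 was low in most cells, with a few higher ones in each. The lower intermediate cells ran from 0 to 263 CPM with a median of 12.1, and 4 of 21 had no read. The upper intermediate cells ran from 0 to 228 CPM with a median of 17.3, and 4 of 24 had no read. The CFUE cells ran from 0.689 to 502 CPM with a median of 27.9. The ranges of the gates overlapped throughout, but 4 Cd34-low BFUE cells lay above all 68 cells of the later gates. The upper tail was present in these gates as well: the highest cell held 30.8% of the Car1 reads of the lower intermediate gate (well A6), 24.6% of the upper intermediate gate (well E7) and 27.6% of the CFUE gate (well A10).

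On summed counts of all kept cells the step with the largest difference was the first. Car1 summed over each gate was 420 CPM in BFUE (413 to 426), 42.0 in the lower intermediate (39.8 to 44.4), 42.3 in the upper intermediate (40.2 to 44.4) and 72.0 in CFUE (69.2 to 74.8). It was 9.99-fold lower in the lower intermediate than in the BFUE gate (9.44 to 10.6), beside 24.3% of 8605 genes lower by 1.5-fold or more. Against the Cd34-low BFUE cells alone it was 14.5-fold lower (13.7 to 15.3), beside 17.7% of genes. Without the cell with most Car1 in each gate the first step was 8.21-fold. The 4 highest BFUE cells held 86.9% of that gate's Car1 reads, so the size of the first step rests largely on them. The median cell had 61.0 CPM in BFUE and 12.1 in the lower intermediate gate. The ratio without these 4 cells was not computed, so the summed counts do not show that the first step is the largest without them. Between the intermediate gates the ratio was 1.01 (0.933 to 1.08), within counting error, where 7.34% of 7807 genes were higher and 9.27% lower by 1.5-fold or more. CFUE stood 1.70-fold above the upper intermediate (1.60 to 1.81), beside 7.98% of genes higher by 1.5-fold or more and 9.7% lower. That last step was 2.39-fold in plate rows A to D and 1.08-fold in rows E to H; the CFUE cells with most Car1 were A10 at 502 and D10 at 393 CPM, both in the upper rows. These 2 cells, the ones with the fewest genes, held 42.2% of the 2552 Car1 reads of CFUE. Without them CFUE stood at 44.6 CPM, 1.05-fold the upper intermediate (0.981 to 1.13) and within counting error of it. The summed CFUE step of Car1 thus rests on them, though high cells were here left out of CFUE alone. Leaving out the cell with most Car1 in each gate gave 1.62-fold. The median CFUE cell had 27.9 CPM of Car1, and 27.8 without A10 and D10, against 17.3 in the upper intermediate gate.

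Counting cells gives another view than summing reads. At 100 CPM or more of Car1 there were 7 of 23 BFUE, 4 of 21 lower intermediate, 2 of 24 upper intermediate and 7 of 23 CFUE cells. With every cell thinned to 500000 reads these counts were 8, 3, 2 and 4. The BFUE and CFUE gates thus held the same number of cells past that level on all reads, while the summed Car1 was 5.83-fold lower in CFUE (5.59 to 6.08), beside 29.6% of genes lower by 1.5-fold or more. Without the CFUE cells A10 and D10 the counts were 7 and 5 and CFUE was 9.42-fold lower (8.93 to 9.94). That ratio leaves out high cells of CFUE alone. The 4 highest BFUE cells, with 86.9% of the Car1 reads of their gate, stayed in it. The median cell had 61.0 CPM of Car1 in BFUE and 27.9 in CFUE. The highest cell of the BFUE gate had 69.9 times the Car1 of the gate's median cell, and the highest CFUE cell had 17.97 times; without A10 and D10 the highest CFUE cell was at 137 CPM.

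Car2 was read in every cell and stepped up from gate to gate. The 23 BFUE cells ran from 40.7 to 2134 CPM with a median of 650. In the lower intermediate gate the range was 691 to 2713 CPM with a median of 1238. In the upper intermediate gate it was 1187 to 5143 CPM with a median of 2104. CFUE cells ran from 1418 to 5875 CPM with a median of 3129. Neighbouring gates overlapped, yet the bulk of the cells moved: 23 of 24 upper intermediate cells were above the lower intermediate median, 17 of 23 CFUE cells were above the upper intermediate median, and 17 of 23 CFUE cells were above every Cd34-low BFUE cell.

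**Figure D1:**
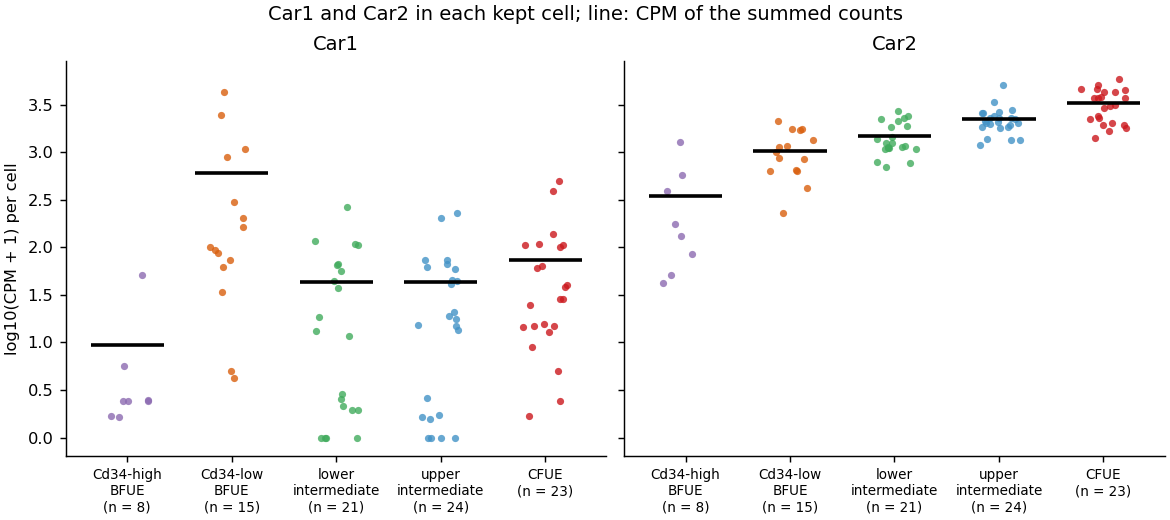
Car1 (left) and Car2 (right) in each of the 91 kept cells as log10(CPM + 1), a log scale, by gate with BFUE cells split at 100 CPM of Cd34; each point is a cell and each black line the CPM of the summed counts. Car1 spreads over 3 to 4264 CPM in the Cd34-low BFUE cells, while Car2 forms a narrower band that is higher in each later gate.

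On summed counts Car2 stood at 805, 1464, 2246 and 3260 CPM in the order of the gates. The lower intermediate was 1.82-fold above BFUE (1.79 to 1.84), beside 10.1% of genes higher by 1.5-fold or more, and 1.44-fold above the Cd34-low BFUE cells (1.42 to 1.46), beside 9.54% of genes. The upper intermediate was 1.53-fold above the lower (1.52 to 1.55), beside 7.34% of genes. CFUE was 1.45-fold above the upper intermediate (1.44 to 1.46), and 1.42-fold without the cells A10 and D10. From BFUE to CFUE the ratio was 4.05-fold (3.999 to 4.10), beside 13.7% of genes, and from the Cd34-low BFUE cells 3.21-fold (3.16 to 3.25), beside 13.6%. The last step was 1.09-fold in plate rows A to D and 1.81-fold in rows E to H, and the first 2.59-fold and 1.44-fold, so the sizes of the steps varied within the plate and the direction did not.

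Part of the BFUE spread of Car2 lay between the Cd34 classes. The 15 Cd34-low cells ran from 230 to 2134 CPM with a median of 999, and the 8 Cd34-high cells from 40.7 to 1280 CPM with a median of 153. Of the Cd34-high cells, 5 were below every Cd34-low cell, and the highest, in well H2, reached 1280 CPM. The summed level was 1017 CPM in the Cd34-low and 341 CPM in the Cd34-high cells, 2.98-fold apart (2.88 to 3.08).

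Car2 was also more even from cell to cell than Car1 within each gate. Its coefficient of variation was 0.75 in BFUE, 0.40 in the lower intermediate, 0.36 in the upper intermediate and 0.38 in CFUE, against 2.34, 1.49, 1.44 and 1.58 for Car1. The levels are unlike, with a mean of 1467 CPM per lower intermediate cell for Car2 and 43.0 for Car1. Against genes within a factor of 2 of its mean Car2 was itself variable. In BFUE 12 of 318 such genes had a higher coefficient, and in the lower intermediate 2 of 126. In the upper intermediate it was 0 of 61 and in CFUE 8 of 35. For Car1, picked for its BFUE spread, the counts in the order of the gates were 0 of 837, 20 of 3285, 33 of 3276 and 41 of 3061. Depth was compared with Car1 as well. In the Cd34-low BFUE cells the rank correlation (Spearman's rho, n = 15 cells that share plate, sort and library batch) of Car1 with the number of reads was 0.25, and with detected genes -0.21.

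The genes were not exclusive in single cells. All 91 kept cells had 10 CPM or more of Car2, and 61 of them also had 10 CPM or more of Car1 (67.0%). No cell had Car1 without Car2 at thresholds of 10, 50 or 100 CPM, or 0 of 91 cells. The other 30 cells had Car2 alone at 10 CPM. By gate, both were present in 14 of 23 BFUE, 12 of 21 lower intermediate, 16 of 24 upper intermediate and 19 of 23 CFUE cells. Within BFUE, both were present in 13 of 15 Cd34-low and 1 of 8 Cd34-high cells. At 50 CPM the count over all gates was 36 cells, and at 100 CPM 20 cells. Both counts were set by Car1 in every case. Only 3 cells were under 100 CPM of Car2, and each of them was also under 100 CPM of Car1.

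Which of the genes was higher per length depended on the cell. To compare the genes, CPM was divided by the exon length in kilobases. Summed over BFUE, Car1 stood at 336 and Car2 at 332 CPM per kb, whereas in CFUE Car1 stood at 57.7 and Car2 at 1346 CPM per kb. Car1 exceeded Car2 per kb in 5 of the 91 cells, all in the BFUE gate. The cell in well C3 had 3417 CPM per kb of Car1 and 269 of Car2, so Car1 made 92.7% of the sum of both. In well G2 that share was 84.7%, in D1 71.4% and in F3 55.8%. The fifth was the Cd34-high cell in well F1, at 54.1%, with low levels of both, 40.6 and 34.4 CPM per kb. The near-equal BFUE sums thus came from 18 BFUE cells with more Car2 and 5 with more Car1.

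**Figure D2:**
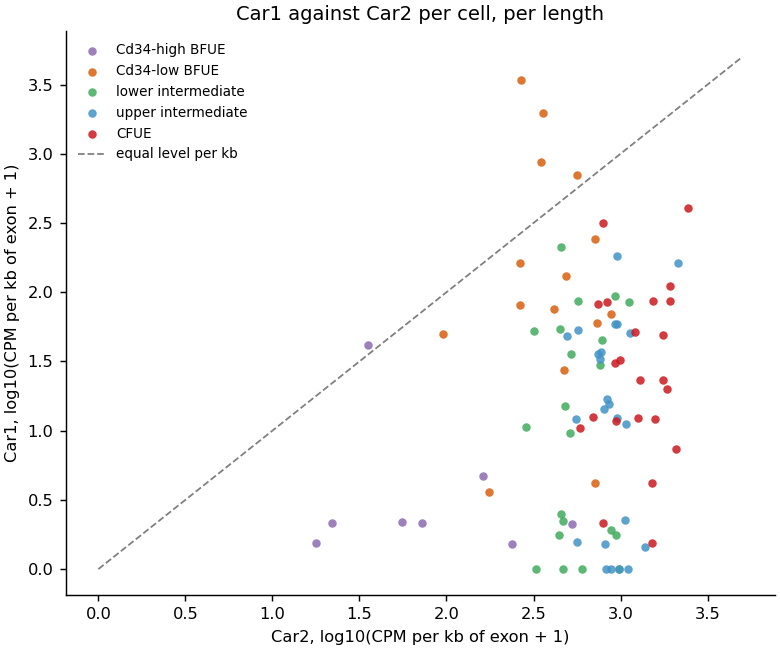
Car1 against Car2 in each kept cell, both as log10(CPM per kb of exon + 1), log scales; colours are the gates, with BFUE cells split by Cd34, and the dashed line marks equal levels. The 5 points above the line are BFUE cells, and no cell lies at high Car1 with Car2 near 0.

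The rank order of cells by Car1 was compared with that by Car2 inside each gate. The rank correlation between them was -0.06 over the 15 Cd34-low BFUE cells, 0.04 over 21 lower intermediate, -0.06 over 24 upper intermediate and 0.17 over 23 CFUE cells. Over all 23 BFUE cells it was 0.45, where most Cd34-high cells ranked low in both genes, and over the 8 Cd34-high cells alone -0.21. The cells of a gate share plate columns, sort and library batch, and these values are descriptions.

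The 15 Cd34-low BFUE cells were then ordered by Car1. The 4 cells with most Car1 had almost no Cd24a, the gene of a sort marker: 1.87, 2.51, 3.38 and 3.41 CPM in wells C3, G2, D1 and F3. Among the other 11 cells, A2 had 2.05 CPM and the remaining ones ran upward from 46.3 CPM to 346 CPM. The rank correlation of Car1 with Cd24a was -0.71 and with Tfrc -0.60, so within the BFUE gate the cells with more Car1 had less transcript of both markers that rise across the gates by selection. With Kit, the third sort marker, it was -0.08. Itga2b, the megakaryocyte and progenitor integrin gene whose protein CD41 was used in the depletion, had 181, 881, 520 and 86.4 CPM in those 4 cells and 0 to 334 CPM in the others, with a median of 40.0 (rho 0.70). Gata2, a factor gene of early progenitors, had 92.9, 825, 1353 and 28.4 CPM in them and 0.620 to 332 in the others (rho 0.20). Cells high in Car1 were therefore both high and low in Gata2, and both groups overlapped in it. The erythroid factor genes Gata1 (rho 0.04) and Klf1 (rho 0.03) and the erythropoietin receptor gene Epor (rho 0.03) had a rho near 0 with Car1.

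**Figure D3:**
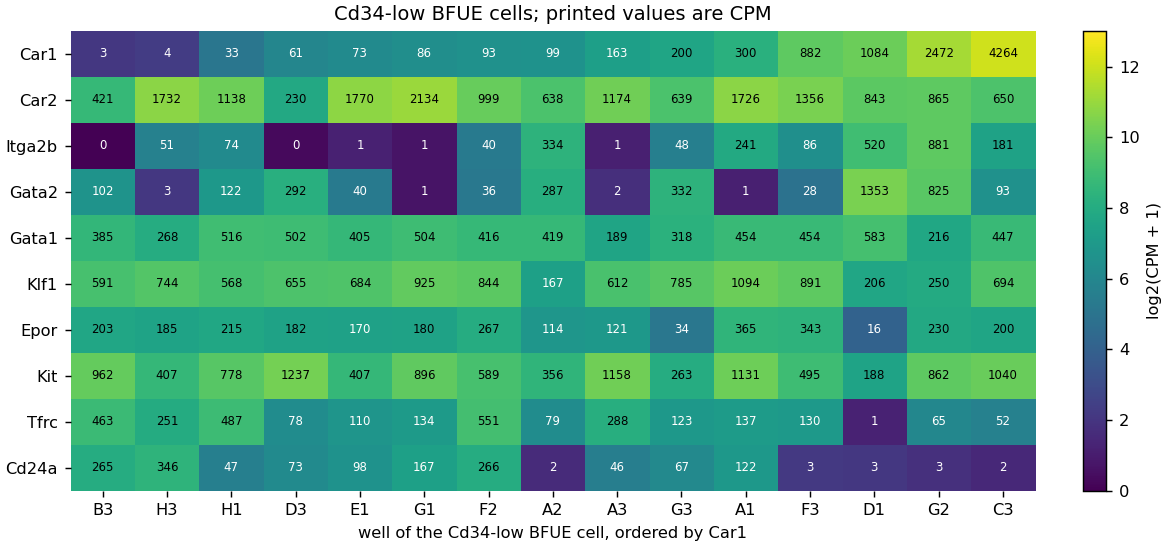
The 15 Cd34-low BFUE cells ordered by Car1 from left to right (well names), with 10 genes in rows; colour is log2(CPM + 1) and the printed values are CPM. The 4 rightmost cells have 882 to 4264 CPM of Car1 and 1.87 to 3.41 CPM of Cd24a, while Gata1 and Klf1 show no order along the row.

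Markers of other cell types were looked at beside this order. The summed level of 10 megakaryocyte markers ran from 3.72 to 1558 CPM over the Cd34-low BFUE cells, with a median of 119 CPM, and followed Car1 (rho 0.76). Itga2b held the highest level in the sum, and the platelet genes Pf4, Ppbp and Gp6 were at 0 in every one of these cells. The part of this list in the Car1 order was not tested. The summed macrophage markers ran the other way (0 to 229 CPM). They were carried by 1 gene, Slc40a1, the iron exporter ferroportin, which erythroid cells also use (rho -0.68); Adgre1, C1qa, C1qb, C1qc, Vcam1, Mrc1 and Timd4 were at 0.

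Over the Cd34-low BFUE cells, 6478 genes had a mean of 20 CPM or more and a read in at least 50% of the cells. Of these, 128 had a rho of 0.6 or more with Car1, which is 1.98% of them, and 136 had a rho of -0.6 or less, 2.1%. These are the extremes of 6478 rankings over 15 cells, and no test was made of whether there are more of them than rankings of unrelated genes would give. Without the 4 cells with most Car1 the counts were 214 and 241 over 11 cells, and 41 and 52 of those were also among the 128 and 136.

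The 12 genes with the highest rho were mostly low ones, with means of 20.2 to 97.1 CPM. Polh, a DNA polymerase that copies past ultraviolet damage (rho 0.81), had 27.4, 107, 27.7 and 55.7 CPM in the 4 cells with most Car1 and 0 to 40.5 in the others. Rnf13, a ubiquitin ligase (0.81), and Capg, an actin-capping protein (0.80), came next. Recql, a DNA helicase (0.78), had 54.9 to 191 CPM in the 4 cells and 4.59 to 80.4 in the others. Was, the Wiskott-Aldrich actin regulator of blood cells (0.77), had 133, 152, 152 and 54.6 CPM in the 4 cells and 4.68 to 92.0 in the others. Arrdc1, an arrestin-domain adaptor (0.79), had 142, 313, 281 and 133 CPM in the 4 cells, and 0.669 to 154 in the others. The remaining ones were Zfp955b (0.79), Dhx40 (0.78), the extracellular matrix protein gene Ecm1 (0.78), Pinx1, a telomerase inhibitor (0.77), Parg, which removes poly(ADP-ribose) (0.76), and Zfp672 (0.76). The ranges of all 12 genes in the 4 cells and in the other 11 overlapped.

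The 12 genes with the lowest rho included an erythroid factor and mitochondrial genes. Lpcat3, a phospholipid acyltransferase (rho -0.84), had 86.1, 92.2, 35.1 and 96.7 CPM in the 4 cells with most Car1 and 94.3 to 239 in the others. Tal1, the erythroid and stem cell factor that works with Gata1 and Lmo2 (-0.81), had 36.2, 47.7, 63.5 and 4.55 CPM in the 4 cells and 45.8 to 267 in the others. Uqcrq, a subunit of respiratory complex III (-0.82), had 142, 114, 174 and 193 CPM in the 4 cells and 196 to 334 in the others, and was the only one of these 24 genes in which the 4 cells lay wholly outside the range of the others. C1qbp, a mitochondrial matrix protein (-0.79), had 542, 519, 335 and 679 CPM in the 4 cells and 478 to 1019 in the others. Mrpl22, a mitochondrial ribosomal protein (-0.83), Pla2g12a, a secreted phospholipase (-0.83), Mpp5, a cell polarity scaffold (-0.82), Ola1 (-0.81), the dynein light chain gene Dynll1 (-0.80), Gpr180 (-0.78), Nepro (-0.78) and the RNA polymerase II subunit gene Polr2l (-0.78) made up the rest.

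These rankings did not carry over to the other gates. None of the 24 genes reached 0.6 or -0.6 with Car1 among the lower intermediate, upper intermediate or CFUE cells, which the ranking did not use. Of the 12 highest genes, 8, 9 and 1 had a positive rho in those gates in that order, with medians of 0.09, 0.08 and -0.18. Of the 12 lowest genes, 6, 7 and 5 had a negative rho. The same held for the full sets: of the 128 genes, 69, 68 and 34 had a positive rho and none reached 0.6, and of the 136 genes, 71, 72 and 71 had a negative rho and none reached -0.6. Car1 itself covered a lower range in those gates, 0 to 502 CPM.

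**Figure D4:**
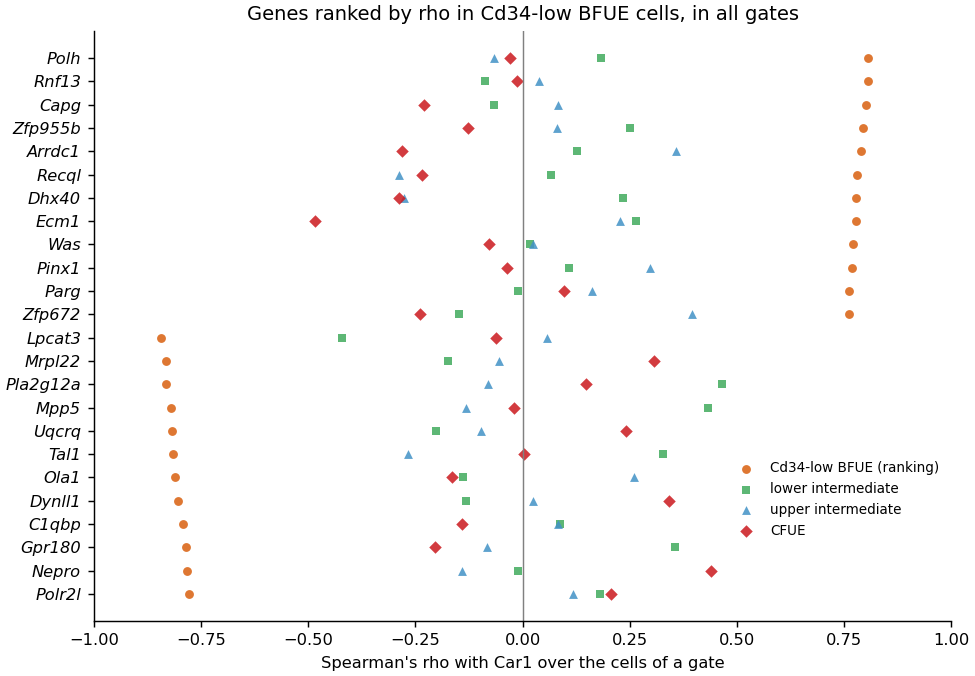
Spearman's rho with Car1 of the 12 genes with the highest and the 12 with the lowest rho over the Cd34-low BFUE cells (circles, which the ranking used), and of the same genes over the lower intermediate (squares), upper intermediate (triangles) and CFUE cells (diamonds). The circles lie at 0.76 to 0.81 and -0.84 to -0.78, and the other symbols scatter around 0 between -0.48 and 0.47.

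Gene groups along the Car1 order are given by how many tested members had a positive rho, beside a median over all 6478 genes of -0.01. Of 24 genes of the G2 and M phases, 21 had a positive rho, with a median of 0.32 and none at 0.6; Ccnb1, a mitotic cyclin, had 0.44 and Top2a, a DNA topoisomerase, 0.35. Of 22 oxidative phosphorylation genes 6 were positive, with a median of -0.26; Atp5b, of the ATP synthase, had -0.26 and Uqcrc1, of complex III, -0.34, while Sdha, of complex II, had 0.33. All 5 tested late erythroblast genes were negative, with a median of -0.42, among them Fech, which inserts iron into heme (-0.43), Tspo2 (-0.42), Rhd, a blood group protein (-0.40), and Bpgm, which makes the diphosphoglycerate that loosens oxygen from hemoglobin (-0.23). Of 7 genes of stem and multipotent progenitors, 6 were positive, with a median of 0.34, among them Adgrg1 (0.50), while Egfl7 had -0.42. The 24 genes of S phase were evenly split, with 12 positive and a median of 0.02.

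Erythroid factor genes split along Car1 without a common direction, 9 of 18 being positive with a median of 0.02. Lmo2, which bridges Tal1 and Gata1 (rho 0.75), had 934, 626, 1036 and 713 CPM in the 4 cells with most Car1 and 226 to 791 in the others. Gfi1b, a repressor of erythroid and megakaryocyte cells (-0.67), had 216, 1.25, 104 and 68.8 CPM in them and 49.1 to 1406 in the others. Among the hormone and factor genes that have been studied at carbonic anhydrase promoters, 7 of 10 tested were positive, with a median of 0.04; Tal1 and Gfi1b were the 2 past -0.6. Singled out after their values were seen, Fli1, an Ets factor of megakaryocytes (0.67), and Tgfbr3, a TGF-beta co-receptor (0.64), were also past 0.6.

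**Figure D5:**
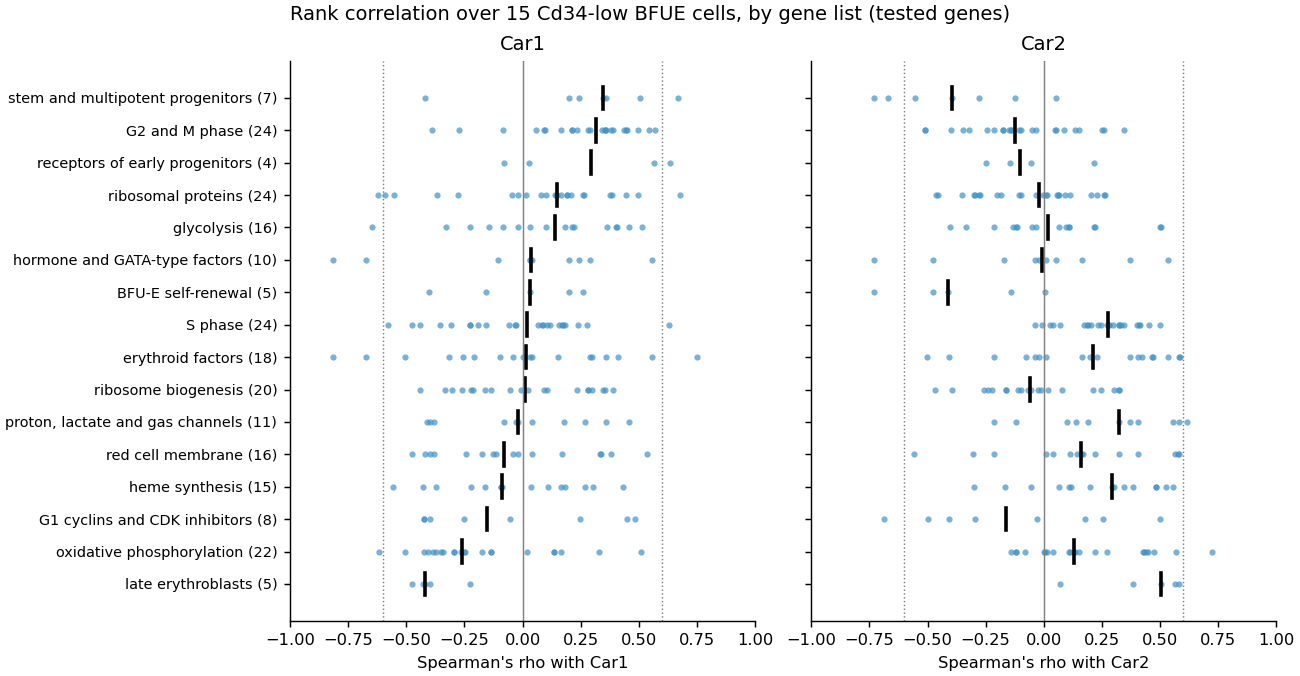
Spearman's rho with Car1 (left) and with Car2 (right) over the 15 Cd34-low BFUE cells, for each tested gene (points) of gene lists with at least 4 tested members (number in parentheses); black bars are list medians and dotted lines mark -0.6 and 0.6. Late erythroblast genes have a median of -0.42 with Car1 and 0.50 with Car2, and G2 and M phase genes 0.32 and -0.12.

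Car2 had another set of companions in the same 15 cells. With Car2, 94 genes (1.45% of 6478) had a rho of 0.6 or more and 75 genes (1.16%) had -0.6 or less. The highest were Dnttip2, a nucleolar protein (0.84), Vcp, the segregase that unfolds ubiquitinated proteins (0.81), Dync1li1, a dynein chain (0.81), Cnot9, of the deadenylase complex (0.78), Atp6v1e1, of the vacuolar proton pump (0.78), and Sirt7, a nucleolar deacylase (0.78). Vcp had 766, 593, 674 and 645 CPM in the 4 cells with most Car2 and 309 to 535 CPM in the other 11. Over all 6478 genes the lowest rho was -0.85, of a gene that the naming rules left out. Of the genes kept for naming, the lowest were Cast, the calpain inhibitor (-0.84), and Map2k3, a stress kinase (-0.78). Next came Smg1, a kinase of RNA decay (-0.77), Matk, a blood cell kinase (-0.77), Rpl12 (-0.76) and Med11 (-0.75). As for Car1, none of these 12 genes reached 0.6 or -0.6 in another gate, though Matk had no rho in CFUE. The full sets differed from those of Car1. Of the 94 genes, 1, 1 and 3 reached 0.6 in the lower intermediate, upper intermediate and CFUE cells. Of the 75 genes, 0, 0 and 1 reached -0.6.

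Beside a median over all genes of 0.01, all 5 late erythroblast genes had a positive rho with Car2 (median 0.50), as did 22 of 24 genes of S phase (median 0.28), 12 of 15 heme synthesis genes (median 0.29), led in level by Alad (0.55), and 13 of 16 red cell membrane genes (median 0.16). Stem and multipotent progenitor genes were mostly negative, 1 of 7 being positive (median -0.40). Gata2 had a rho of -0.73 with Car2 and Cd48 -0.67; Cdk6, a kinase of early G1, had -0.69.

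For Car2 the late erythroblast markers followed it inside every gate. Their summed CPM, over 13 genes, had a rho with Car2 of 0.50 over the Cd34-low BFUE cells, 0.62 over the lower intermediate, 0.65 over the upper intermediate and 0.70 over the CFUE cells. With Car1 the same sum had -0.44, -0.32, 0.06 and -0.14. Rhd alone had a rho with Car2 of 0.58, 0.40, 0.71 and 0.84 in these cells, and Cd24a, a sort marker, 0.36, 0.30, 0.49 and 0.55. The summed markers themselves went from a median of 584 CPM in the Cd34-low BFUE to 3627 CPM in the CFUE cells; their part in the Car2 levels was not tested.

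Few of the bicarbonate exchanger genes were expressed in these cells. Of 14 bicarbonate and anion exchangers 4 had at least 10 CPM in CFUE or the Cd34-low BFUE cells, of which 2 were higher and 2 lower in CFUE by 1.5-fold or more (beside 13.6 and 24.9% of all genes). Slc26a1, a sulfate and bicarbonate exchanger, went from 13.01 to 92.4 CPM, 7.10-fold (6.35 to 7.96). Slc4a2, the widely used chloride and bicarbonate exchanger, went from 25.2 to 6.52 CPM, 3.87-fold lower (3.33 to 4.52), and Slc4a7, a sodium bicarbonate transporter, from 15.4 to 6.37 CPM. Slc4a1, band 3, the exchanger that works beside carbonic anhydrase in the red cell, was singled out after its value was seen. On summed counts it stood at 0.19 CPM in the Cd34-low BFUE cells, 0.23 in the lower intermediate, 2.69 in the upper intermediate and 166 in CFUE. The CFUE cells were uneven in it, from 0 CPM in wells such as A11 to 632 CPM in well F12. Car2 was already at 1017 CPM in cells where band 3 transcript was near its floor.

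Of 16 proton, lactate and gas channel genes, 12 had at least 10 CPM in the same comparison, 5 of them higher and 1 lower. Rhag, a gas and ammonia channel of the red cell, went from 139 to 662 CPM, 4.77-fold (4.60 to 4.94), and Bsg, the chaperone of the lactate carriers, from 506 to 889 CPM. Aqp1, the water and gas channel, went from 302 to 423 CPM, and Slc16a1, a lactate and proton carrier, from 406 to 435 CPM, both under 1.5-fold. Within the Cd34-low BFUE cells 9 of 11 tested genes of this list had a positive rho with Car2 (median 0.33), with Slc16a1 at 0.61, and 5 of 11 with Car1 (median -0.02).

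No other carbonic anhydrase had more than 15 CPM in a gate or Cd34 class; in the Cd34-high BFUE cells, where Car1 was at 8.35 CPM, Car9 stood at 12.2, Car3 at 12.03 and Car13 at 9.69 CPM. Of 14 others in the table, 4 had no read in any kept cell and 2 reached 10 CPM in a gate. Car9, a membrane form known as a hypoxia target, stood at 13.5, 5.41 and 3.16 CPM in the first 3 gates and at 0 reads in CFUE, where the floor of 3 reads is 0.0846 CPM. It was read in only 8 of 23 BFUE, 7 of 21 lower intermediate and 4 of 24 upper intermediate cells, with a median of 0 in each gate. Car13, a cytosolic form encoded on the side of Car1 away from Car2, stood at 13.1, 5.31, 6.31 and 9.96 CPM and was read in 12 of 23 BFUE and 11 of 23 CFUE cells. Car3, which lies between Car1 and Car2, had 6.08 CPM in BFUE, with 3.36 CPM in the Cd34-low cells, and no read in the intermediate gates. Car13 was read in 10 of the 15 Cd34-low BFUE cells but fell short of the mean needed to be ranked against Car1. Car9, read in 6 of these cells, fell short on detection.

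Expressed neighbours of the pair were few and low. Within 500 kb of Car1 or Car2 the annotation holds 21 genes other than the pair, all in the table, and 4 had 10 CPM or more in a gate. Lrrcc1, a centrosome gene, stood at 28.6, 20.6, 12.8 and 24.4 CPM in the order of the gates. The unnamed gene 1810022K09Rik stood at 86.7, 110, 92.2 and 137 CPM, and E2f5, a cell cycle repressor, at 9.009, 3.77, 13.4 and 2.91 CPM. For 1810022K09Rik the highest CFUE cell had 1060 CPM and the median CFUE cell 104. Car13 was the fourth. At the first step, from BFUE to the lower intermediate gate, Lrrcc1 and 1810022K09Rik differed by less than 1.5-fold, E2f5 was under 10 CPM in both gates and Car13 was lower by more than 1.5-fold, as Car1 was.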

How the data were processed

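Raw counts per gene and well were deposited by the authors as 1 table; per the submitters' processing notes they used STAR 2.4, featureCounts and GRCm38, while for the annotation release, the featureCounts version and its strand setting the record is "not given in the sources used here". In the table, the header line has 1 empty cell more than the rows, so names were matched to columns in order; all columns carry a sample name. Car1 and Car2 and the gene lists were chosen with earlier results of these data known. Wells with at least 50000 reads and 1000 genes were kept. CPM are reads scaled by the total of the cell or of the gate's summed counts. Ratios of summed counts carry exact conditional binomial 95% intervals, and counts of cells carry none; the floor is 3 reads. Genes with at least 10 CPM on either side entered the shares of genes past 1.5-fold. Cd34-low means under 100 CPM of Cd34. Exon lengths and positions came from a GRCm38 annotation, in which 49326 of the 49466 identifiers were found.

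Spearman's rho used genes with a mean of 20 CPM or more and a read in at least 50% of the 15 cells. Named were the 12 highest and 12 lowest for Car1 and 6 and 6 for Car2, if the sign held in plate rows A to D, in rows E to H and without the highest cell; predicted genes, pseudogenes and mitochondrial genes were left out. From each gene list up to 4 members of highest mean CPM were named, as were other carbonic anhydrases and neighbouring genes at 10 CPM or more in a gate; some list members are not reported here, and exceptions are marked or are members past a rho of 0.6 or -0.6, defining markers, Gata2, Epor and Car3. Alternatives were mean CPM per cell, TMM factors (edgeR 4.0.16 in R 4.3.3), no well filter, plate rows apart, cells left out, other thresholds, Pearson's r with pseudocounts of 1 and 10, thinning to 500000 reads and other totals; leaving out the 4 cells with most Car1, or the CFUE cells A10 and D10, was chosen after seeing the data. The code for the rankings and ratios was run on simulated counts with planted differences. That run checked the code alone and does not bear on the spread between cells or animals here. Python 3.11.15 with scipy 1.17.1 was used.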

Additional observations from a re-analysis of the deposited data

Results flagged for a closer look

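The 5 wells under 50000 reads were used in no comparison, yet each held Car2 reads above the 3 that a count of 0 allows. The BFUE well D2 had 4 Car2 reads of 12472. The CFUE well C12 had 36 of 14286. Among the lower intermediate wells, E5 had 21 of 16644, G5 had 15 of 10596 and H4 had 27 of 16202. D2 had 1 Car1 read and the other 4 wells had none; at these depths the floor of 3 reads lies between 180 and 283 CPM, above the Car1 of most kept cells.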

How the results depend on the processing

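No paired analysis was possible because the numbers in the labels are wells of single cells and no test was made. No ratio between gates that differed beyond counting error changed direction under any alternative run. Car1 in the lower intermediate over BFUE, 0.100 in all cells, was 0.0903 in plate rows A to D, 0.115 in rows E to H, 0.122 without the highest cell of each gate and 0.0692 without the Cd34-high cells. Car1 between the intermediate gates, 1.01, was 0.927 and 1.10 in the upper and lower plate rows, 1.09 without the highest cells and 0.954 as a mean of cells. Car1 in CFUE over the upper intermediate, 1.70, was 1.92 as a mean of cells, 2.39 and 1.08 in the upper and lower rows and 1.05 without the CFUE cells A10 and D10.

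For Car2 the first step, 1.82, was 1.77 as a mean of cells, 1.91 with TMM, 2.59 and 1.44 in the upper and lower rows, 1.89 without the highest cells and 1.44 without the Cd34-high cells. The second, 1.53, was 1.67 and 1.41 in the upper and lower rows and 1.503 without the highest cells. The third, 1.45, was 1.47 with TMM, 1.09 and 1.81 in the upper and lower rows, 1.49 without the highest cells and 1.42 without A10 and D10. The cause of these shifts was not tested.

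Cells with both genes numbered 61 at 10 CPM, 36 at 50 CPM, 20 at 100 CPM and 61 after thinning. Of genes with a rho of -0.6 or less with Car1, 136 in all, there were 243 of 12412 with no filter on low genes, where more genes are ranked. Without the 4 cells with most Car1, 214 genes were past 0.6 and 241 past -0.6 over 11 cells, where fewer cells are ranked. The other alternatives gave 113 to 189 genes past 0.6 and 113 to 183 past -0.6. With Pearson's r on log2(CPM + 10), 76 of the 128 and 85 of the 136 genes were called again. TMM moved the median log2 ratio of all genes in CFUE over BFUE from -0.14 to -0.03. Depth limits Car1 near 1 CPM, which is 1 or 2 reads a cell.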
